A study of Mus musculus with 6 samples.

Results

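Interferon-stimulated genes and the IRF and STAT transcription factors that switch them on were followed in bone marrow from mice with acute myeloid leukemia. They were taken by gene symbol from the deposited count table, with a name pattern that covers IFIT, IFITM, OAS, GBP, PYHIN, IRF and STAT families, the interferon receptors and single antiviral genes such as Rsad2 and Usp18. The pattern found 50 genes among the 9295 of the table, and all 50 passed the filter on low counts, which left 8358 genes in all to test. The pattern reads symbols and no measured value. The pattern's other family genes, such as Isg15, Mx1, Irf1, Irf9, Stat2 and Ifnar1, were not analysed here.

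The study compared 3 libraries labelled Con, with the genotype PAPOLA flox/flox, with 3 labelled KO, with the genotype PAPOLA KO. Papola encodes poly(A) polymerase alpha, the nuclear enzyme that adds the tail to the end of messenger RNA, and the study was set up to learn what it does in this leukemia. All 6 libraries come from bone marrow whose cell type is labelled leukemia. Strain, age, sex, the Cre driver of the deletion, the leukemia model and any sorting of cells are not stated in the labels. Whether each library is a mouse of its own is not stated either. The p-values set the difference between the groups against the spread among libraries of a group, and that spread may be technical.

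The libraries held 11253932 to 11436216 counts per Con library and 8875022 to 9768143 per KO library. Con replicates 2 and 3 stood closer together than any other pair of a group (chi-square per degree of freedom 1.68, against 17.71 to 23.69 for the other pairs of a group). They differed by more than counting noise, which does not show that they are separate samples. They were kept as 2 samples, as labelled. Papola itself showed no fall: it averaged 290.7 ± 6.42 CPM (counts scaled to a common library size) over the Con libraries and 339.1 ± 23.8 CPM over those labelled KO. Its counts are for the whole gene and do not check the deletion, so every direction below is that of the libraries labelled KO against those labelled Con. The log2 difference of 0.22 (adjusted p = 0.0291, edgeR) was -0.13 with library size as the only scaling (adjusted p = 0.186). It did not pass without any 1 library other than KO replicate 3 (adjusted p = 0.0614 to 0.0814).

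As background, interferons are cytokines that leukocytes and infected cells release. Type I interferons act through the receptor chains IFNAR1 and IFNAR2, and interferon gamma through IFNGR1 and IFNGR2. The receptors' JAK kinases phosphorylate STAT proteins. A complex of STAT proteins and IRF9 then binds the interferon-stimulated response element (ISRE), and STAT dimers bind the gamma-activated site (GAS). IRF factors bind ISRE-like sequence as well, and in marrow IRF8 is known as a factor of monocyte and dendritic cell development.

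The upstream sequences of members that moved in opposite directions are shown first, since many of them carry the ISRE letters. They are RefSeq's, of the build GRCm38.p6, and 41 of the 50 members have an entry in the table. Usp18, Parp14, Gbp8 and Ifi27l2a are among the members without one. Each runs 5′ to 3′ on the gene's strand over the 250 bases before its annotated start. Capitals mark the ISRE letters, searched on both strands as GAAA, any 2 bases and GAAA (TTTC, any 2 bases and TTTC when read from the other strand), and the GAS letters, TTC, any 3 bases and GAA. Where matches overlap, as in Bst2 and Irgm1, the capitals run together. Bst2 (chr8:71537473-71537722, minus strand), Irgm1 (chr11:48871421-48871670, minus strand), Gbp2 (chr3:142620413-142620662, plus strand) and Rsad2 (chr12:26456453-26456702, minus strand) were lower in the libraries labelled KO.
Bst2: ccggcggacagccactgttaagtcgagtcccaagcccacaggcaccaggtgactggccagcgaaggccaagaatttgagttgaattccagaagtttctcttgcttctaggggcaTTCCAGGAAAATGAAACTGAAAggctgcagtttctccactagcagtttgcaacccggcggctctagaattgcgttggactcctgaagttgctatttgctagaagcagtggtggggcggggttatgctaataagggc
Irgm1: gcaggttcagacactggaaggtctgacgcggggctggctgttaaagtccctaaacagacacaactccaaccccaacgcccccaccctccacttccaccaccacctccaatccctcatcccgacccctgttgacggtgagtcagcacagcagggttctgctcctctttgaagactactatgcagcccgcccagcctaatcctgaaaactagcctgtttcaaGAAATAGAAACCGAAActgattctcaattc
Gbp2: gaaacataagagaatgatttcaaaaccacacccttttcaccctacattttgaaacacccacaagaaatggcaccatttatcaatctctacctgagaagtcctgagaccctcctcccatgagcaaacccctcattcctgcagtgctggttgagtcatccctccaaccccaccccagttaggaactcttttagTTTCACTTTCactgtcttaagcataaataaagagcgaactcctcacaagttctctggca
Rsad2: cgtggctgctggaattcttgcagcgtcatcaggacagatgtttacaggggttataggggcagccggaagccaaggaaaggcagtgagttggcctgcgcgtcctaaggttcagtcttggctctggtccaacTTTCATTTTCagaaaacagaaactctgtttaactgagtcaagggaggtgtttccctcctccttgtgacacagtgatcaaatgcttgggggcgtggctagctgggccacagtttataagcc

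Ifit1bl2 (chr19:34640744-34640993, minus strand), Irf8 (chr8:120736108-120736357, plus strand) and Ifitm6 (chr7:141016893-141017142, minus strand) were higher. Ifit1bl2 and Irf8 each have 2 annotated starts, and the one shown is the one with matches. Ifit1bl2 has a pair of ISRE matches, and Irf8 and Ifitm6 have GAS matches only.
Ifit1bl2: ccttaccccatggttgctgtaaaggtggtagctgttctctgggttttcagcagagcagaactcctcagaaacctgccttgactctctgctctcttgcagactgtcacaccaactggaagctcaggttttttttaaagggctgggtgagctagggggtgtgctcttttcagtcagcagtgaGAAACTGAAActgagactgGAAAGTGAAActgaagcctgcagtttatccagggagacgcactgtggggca
Irf8: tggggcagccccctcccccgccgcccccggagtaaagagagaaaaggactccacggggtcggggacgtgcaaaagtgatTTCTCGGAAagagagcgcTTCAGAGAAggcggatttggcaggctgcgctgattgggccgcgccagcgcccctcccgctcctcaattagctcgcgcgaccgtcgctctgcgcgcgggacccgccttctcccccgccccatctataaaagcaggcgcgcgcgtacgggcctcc
Ifitm6: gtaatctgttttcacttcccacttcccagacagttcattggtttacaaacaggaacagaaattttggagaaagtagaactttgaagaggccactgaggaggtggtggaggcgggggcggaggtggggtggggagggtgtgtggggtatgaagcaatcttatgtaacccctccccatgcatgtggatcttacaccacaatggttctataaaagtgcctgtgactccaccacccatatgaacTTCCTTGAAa

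Ifit3 (chr19:34583279-34583528, plus strand) and Ifit3b (chr19:34607707-34607956, plus strand) are copies in 1 gene cluster, shown because their counts differed in call while their upstream sequences share an identical unbroken stretch of 169 of the 250 bases, with both ISRE matches in it.
Ifit3: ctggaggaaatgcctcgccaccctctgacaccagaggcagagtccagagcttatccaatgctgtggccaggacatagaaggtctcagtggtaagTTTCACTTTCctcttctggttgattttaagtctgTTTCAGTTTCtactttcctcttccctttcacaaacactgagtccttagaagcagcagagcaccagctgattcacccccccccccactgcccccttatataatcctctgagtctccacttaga
Ifit3b: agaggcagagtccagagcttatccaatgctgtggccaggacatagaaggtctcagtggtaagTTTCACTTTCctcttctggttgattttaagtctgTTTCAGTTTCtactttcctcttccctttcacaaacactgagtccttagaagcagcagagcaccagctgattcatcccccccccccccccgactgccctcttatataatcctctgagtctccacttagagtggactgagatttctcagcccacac

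ISRE letters were found upstream of 18 of the 41 members with an entry (43.9%), against 3.24% of the tested genes with an entry and 3.46% of all genes of the promoter table. By direction, they were found in 5 of 8 members that fell, 8 of 24 that rose and 5 of 9 that did not pass the test. Near copies count as separate genes in these shares: Ifi206, Ifi208 and Ifi213 share most of their upstream sequence, as do Ifit3 and Ifit3b. GAS letters were found in 8 of 41 members (19.5%), against 7.46% of the tested genes and 8.13% of all genes of the promoter table. They stood upstream of 6 of 24 members that rose, 1 of 8 that fell and 1 of 9 that did not pass. Over the 100 bases next to the start, ISRE letters were found in 13 of 41 members (31.7%) and 1.38% of tested genes. ISRE letters thus stood upstream of members of every outcome. A match is a string of letters, not a site of binding, and members were partly chosen by name as interferon genes.

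The family had no common direction. Of the 50 members, 29 rose and 10 fell in the libraries labelled KO and 11 did not pass an adjusted p of 0.05 (edgeR), and the median of their log2 fold changes (KO less Con) was 0.55. In these data most genes changed. Of all 8358 genes tested, 82% passed, 39.6% higher and 42.4% lower, with a median of -0.06, so the members' 39 calls (78%) are close to that background. Of the members, 24 (48%) changed at least 2-fold, 16 up and 8 down, against 46.6% of all genes, 22.8% up and 23.8% down. The levels of the groups did not overlap in 40 members (80%), against 84.5% of all genes. The range ran from -2.98 for Usp18 to 7.71 for Ifitm6. With library size as the only scaling 22 members rose and 17 fell, where 29.8% of all genes were higher and 53.6% lower, and the median over all genes moved by -0.35. The members' median stayed 0.57 to 0.67 above that of all genes in each of the 14 alternatives run, all on these same libraries.

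**Figure D1:**
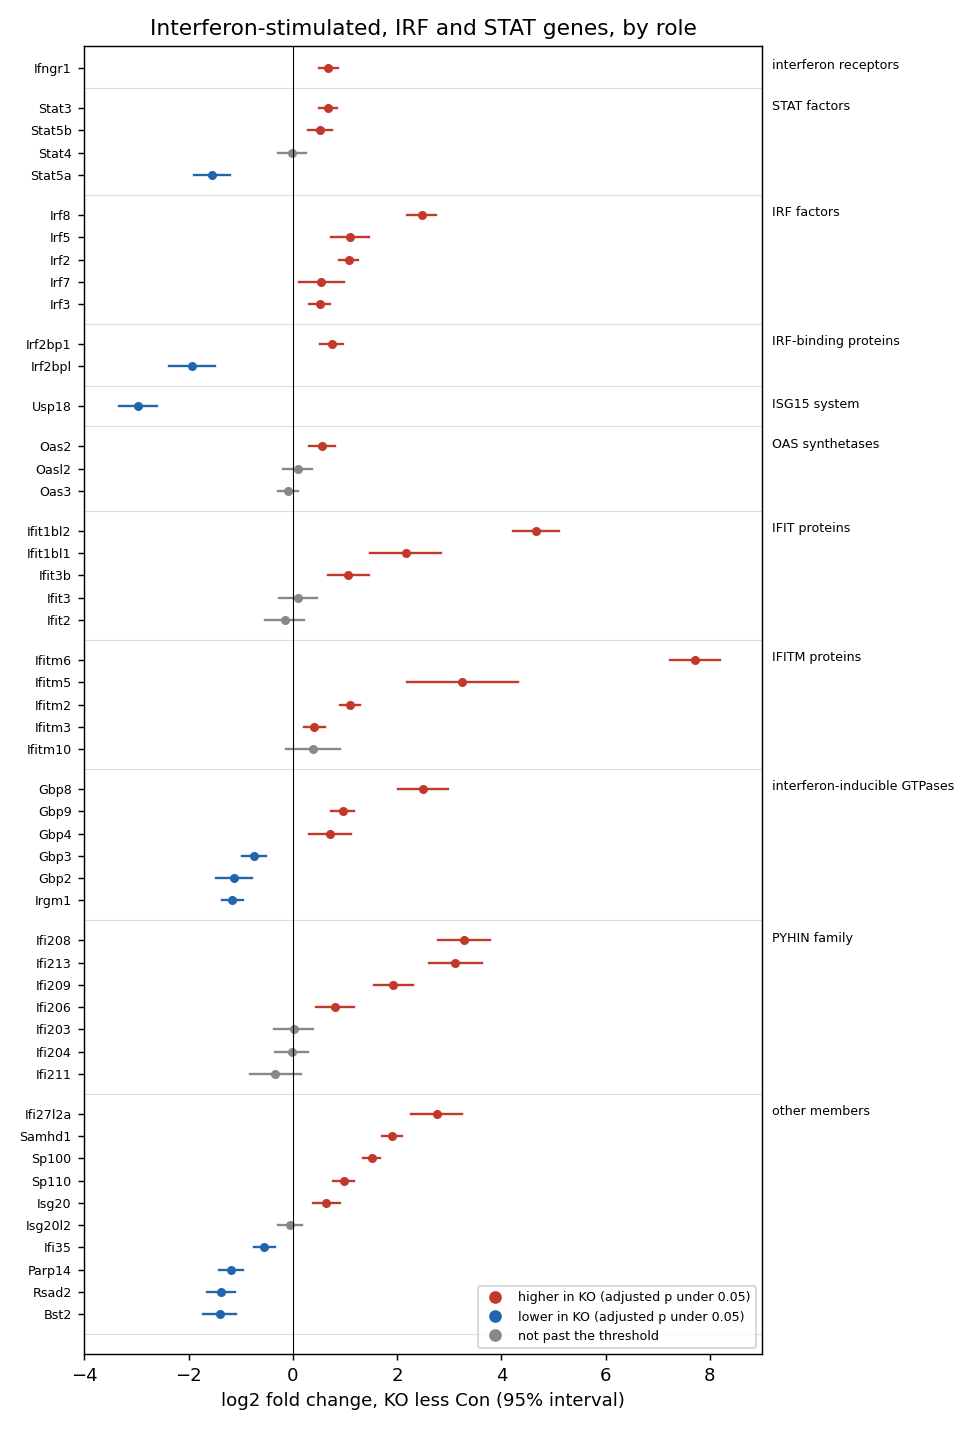
Log2 fold change (KO less Con, x axis) of 49 of the 50 members, grouped by role, with its 95% interval as a line and colour for the call. Points lie on both sides of 0 in the STAT, IRF-binding, GTPase and other groups, while called IFIT, IFITM, IRF and PYHIN members all lie to the right, up to 7.71 for Ifitm6.

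**Figure D2:**
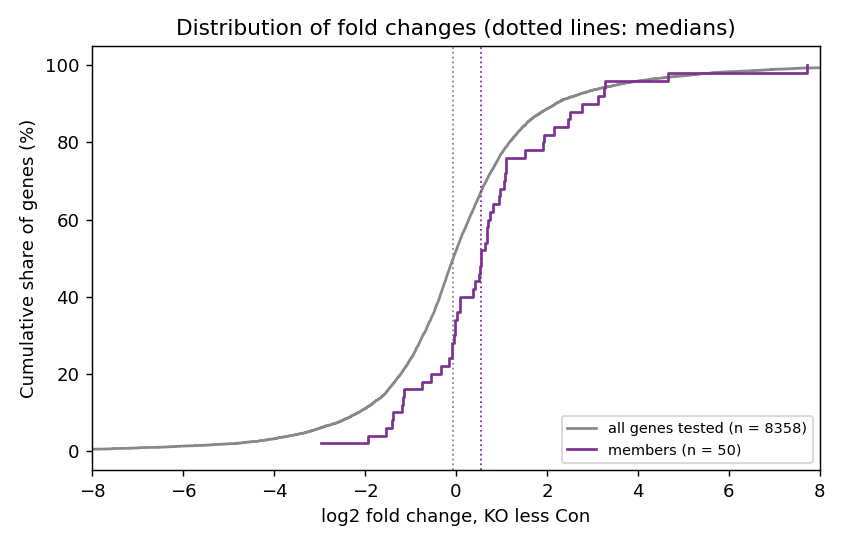
Cumulative share of genes (y axis, %) by log2 fold change (KO less Con, x axis) for the 50 members and all 8358 genes tested, with dotted lines at the medians. The members' curve lies to the right of the other around its median of 0.55, against -0.06.

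Cell type markers moved with the groups, and their part in the members' changes was not tested. All 13 late neutrophil markers were higher in the libraries labelled KO, with a summed level of 169700 to 194760 CPM against 2450 to 2614 CPM. All 9 erythroid markers in the table were higher (16930 to 24027 against 71.2 to 126 CPM), as were 5 of 6 monocyte markers (2924 to 4070 against 372 to 490 CPM). Of 9 macrophage markers 4 were higher and 5 lower, and their sum was 770 to 1450 CPM in KO against 18512 to 28063 CPM in Con. Plasmacytoid dendritic cell markers, of which 6 of 8 were higher and 1 lower, summed to 589 to 954 against 281 to 349 CPM. Conventional dendritic cell markers (3 of 5 higher, 1 lower) summed to 78.3 to 159 against 19.3 to 25.5 CPM. B cell markers (2 of 4 higher) summed to 53.5 to 165 against 44.1 to 76.0 CPM, and the groups overlapped. T and NK cell markers (9 of 10 higher, 1 lower) summed to 210 to 227 CPM in KO against 298 to 499 CPM in Con. Most of that Con sum was Gzmb, the 1 that was lower, at 302.7 CPM in Con and 7.10 CPM in KO. Endothelial and stromal markers (6 of 7 higher, 1 lower) summed to 333 to 531 against 380 to 385 CPM, and the groups overlapped. Most of the Con sum there was Pecam1, the lower gene, at 371.1 CPM in Con and 79.3 CPM in KO. In the Con libraries Klk1 (plasmacytoid dendritic cells), Ncr1 (NK cells) and Sele (endothelium) were at 0 counts, and Vsig4 (macrophages), Cd3e (T cells) and Slc4a1 (red cells) had 1, 1 and 3 counts in all. No listed marker in the table was at 0 in the libraries labelled KO. Within the macrophage list Gpnmb (-10.73) and Mmp12 (-12.41) were lower and C1qa (7.38) was higher on the log2 scale. Markers named here or beside Irf8 that were not at 0 were chosen after their values were seen. Within such libraries, fewer cells of a type and less RNA per cell cannot be told apart, and any sorting of cells is not stated. Values below are CPM after TMM scaling in replicates 1, 2 and 3, with mean ± SD over the 3 libraries, and single adjusted p-values are from edgeR over all genes.

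Of the receptor chains, only Ifngr1 (gene ID 15979), the ligand-binding chain for interferon gamma, was analysed, and it rose. It stood at 115.3, 115.3 and 119.5 CPM in Con and at 197.7, 172.8 and 190.8 CPM in KO. Every KO library was above every Con library, and the log2 fold change was 0.68 (SE 0.08, adjusted p = 3.08e-05).

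The STAT factors, which carry the signal from receptor to nucleus, split. Of 5, 2 were higher and 1 lower (60% called, against 82% of all genes). Stat4 (20849), which acts downstream of interleukin-12 and type I interferon, stood at 66.9, 51.4 and 53.2 CPM in Con and 61.6, 54.1 and 53.6 CPM in KO. The groups overlapped, and its log2 fold change of -0.02 had a 95% interval of -0.28 to 0.25 (adjusted p = 0.892). With library size only it was lower, at -0.38 (adjusted p = 0.0176). Stat3 (20848), the factor of interleukin-6 and G-CSF signalling, rose from 266.0, 259.5 and 253.8 CPM to 435.9, 388.0 and 420.6 CPM, or by 0.68 on the log2 scale (SE 0.08, adjusted p = 3.14e-05).

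The neighbouring genes Stat5a and Stat5b, which encode near-identical factors of cytokine signalling, moved apart. Stat5a (20850) went from 145.4, 96.3 and 102.7 CPM to 37.8, 38.6 and 41.3 CPM, and Con replicate 1 stood above the other Con libraries. Its log2 fold change was -1.55 (SE 0.16, adjusted p = 1.2e-05). Stat5b (20851) went from 135.9, 117.5 and 115.0 CPM to 188.3, 158.6 and 181.4 CPM, up by 0.52 on the log2 scale (SE 0.10, adjusted p = 0.000802), or by 0.16 (adjusted p = 0.180) with library size only. Both carry counts that are not whole, as where reads are split between genes, and single values of such copies are uncertain. Summed as 1 feature, they gave 237.5 ± 37.9 CPM in Con and 215.4 ± 15.8 CPM in KO, with a log2 fold change of -0.14 (adjusted p = 0.288).

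All 5 IRF factors rose, where 82% of all genes were called and 39.6% were higher. Irf8 (15900), the factor of monocyte and dendritic cell development, went from 64.6, 63.5 and 63.7 CPM to 297.1, 348.4 and 417.3 CPM. The 3 Con libraries were nearly level and every KO library stood far above them, and the log2 fold change was 2.47 (SE 0.12, adjusted p = 1.15e-07), beside higher summed levels of plasmacytoid dendritic cell, conventional dendritic cell and monocyte markers. Not every marker of those lists rose: Lair1 (-0.43) and Batf3 (-2.39) fell, and Il3ra, Zbtb46 and S100a4 did not pass. Irf2 (16363), which binds the same element as IRF1 and can repress it, rose from 55.7, 49.7 and 52.0 CPM to 107.0, 108.5 and 114.8 CPM (1.07, SE 0.08). Irf5 (27056), a factor of Toll-like receptor signalling in myeloid cells, stood at 60.8, 62.2 and 62.6 CPM in Con. In KO it was at 95.2, 153.7 and 148.1 CPM, a wide spread with replicate 1 low, and its log2 fold change was 1.10 (SE 0.16, adjusted p = 0.000193).

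Irf3 (54131), the factor that induces interferon beta after nucleic acid sensing, rose from 51.8, 46.0 and 46.3 CPM to 73.5, 68.7 and 64.1 CPM (0.52, SE 0.09), but was at 0.16 (adjusted p = 0.167) with library size only. Irf7 (54123), the inducible amplifier of type I interferon, was nearly level in Con at 129.5, 135.1 and 135.2 CPM and spread in KO at 164.6, 267.4 and 151.5 CPM. Its log2 fold change was 0.55 (SE 0.19, adjusted p = 0.0253). Without KO replicate 2, the high library, it fell to 0.24 (adjusted p = 0.0213). Leaving out Con replicate 1, 2 or 3 ended the call (adjusted p = 0.0828, 0.0621 and 0.0657), as did upper-quartile scaling (0.46, adjusted p = 0.0574) and library size only (0.19, adjusted p = 0.400).

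The IRF-binding corepressor genes moved apart. Irf2bp1 (272359) rose from 19.9, 20.6 and 20.7 CPM to 32.9, 35.0 and 34.6 CPM (0.74, SE 0.10). Its relative Irf2bpl (238330) fell from 42.3, 53.3 and 58.2 CPM to 10.05, 13.1 and 17.4 CPM (-1.93, SE 0.19, adjusted p = 1.3e-05). Neither pair of groups overlapped.

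**Figure D3:**
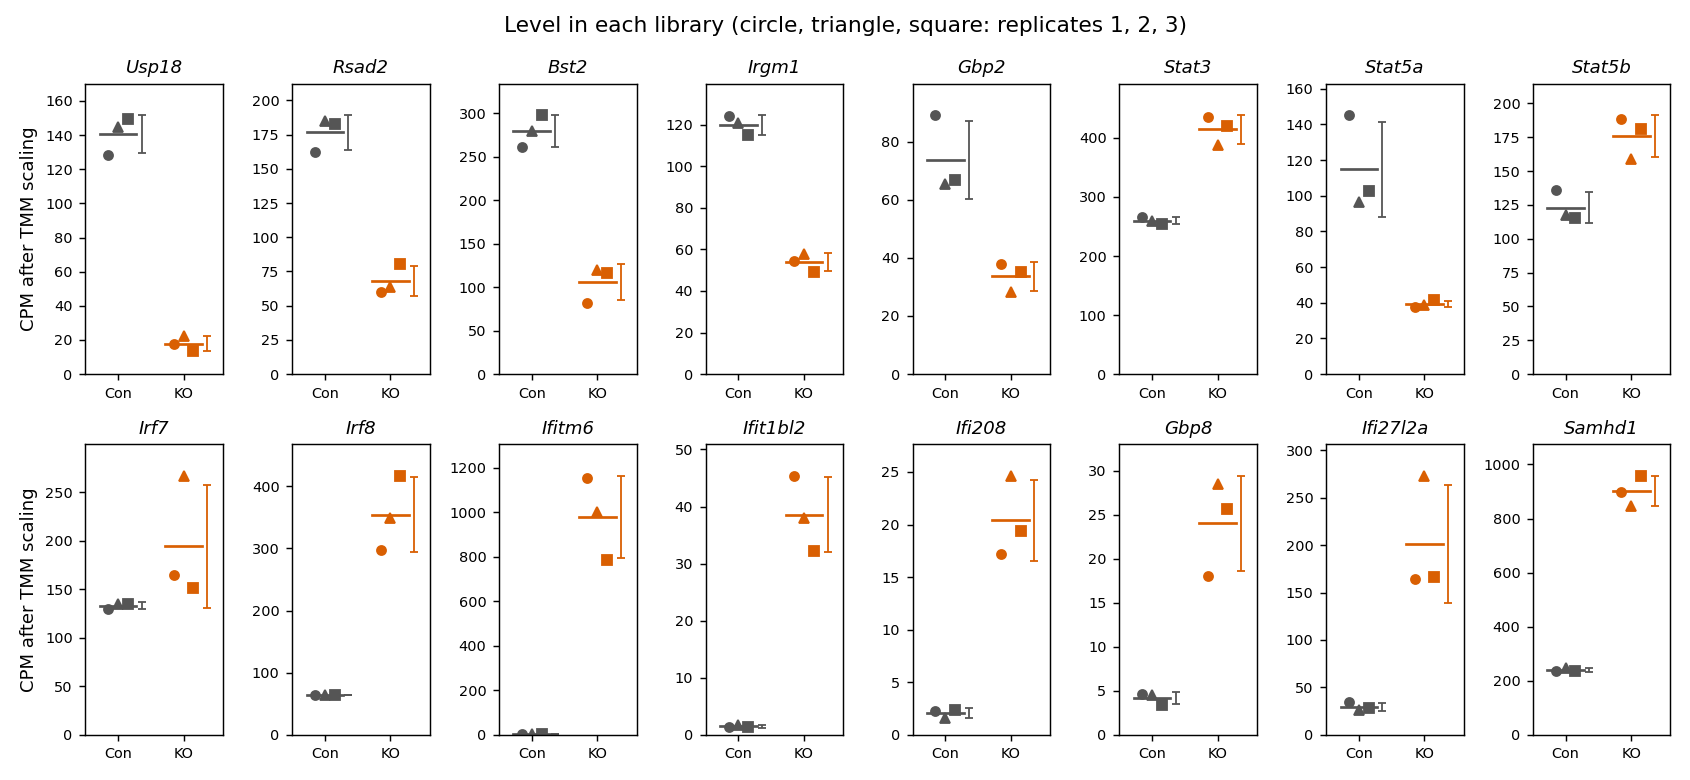
Level of 16 members in each library (CPM after TMM scaling, y axis from 0; circle, triangle and square for replicates 1, 2 and 3; horizontal line for the mean and bar for ± SD, n = 3). The groups are apart in each panel, and KO replicate 2 stands high for Irf7 and Ifi27l2a.

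Usp18 (24110), which removes ISG15 from proteins and restrains type I interferon receptor signalling, fell furthest of the members. It stood at 128.2, 144.6 and 149.5 CPM in Con and at 17.9, 22.4 and 13.3 CPM in KO. The groups lay far apart, and the level was 7.87-fold lower. The log2 fold change was -2.98 (SE 0.16, adjusted p = 2.18e-07).

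Antiviral effectors split, with 5 of 10 other members higher and 4 lower (90% called, against 82% of all genes). Rsad2 (58185), viperin, fell from 162.1, 185.1 and 183.1 CPM to 59.8, 63.8 and 80.4 CPM (-1.38, SE 0.12, adjusted p = 3.67e-06). Bst2 (69550), tetherin, which holds budding virus at the membrane, fell from 260.7, 279.8 and 297.8 CPM to 81.9, 119.1 and 116.2 CPM (-1.40, SE 0.14). Parp14 (547253), an ADP-ribosyltransferase, fell from 189.0, 211.1 and 204.7 CPM to 85.5, 80.2 and 100.5 CPM (-1.18, SE 0.10). Ifi35 (70110), a partner of NMI, fell less, from 61.4, 59.2 and 62.6 CPM to 44.3, 43.2 and 37.7 CPM (-0.55, SE 0.09). In these 4 genes every KO library was below every Con library.

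The 5 that rose include Samhd1 (56045), which hydrolyses deoxynucleotides and so limits reverse transcription. It went from 237.5, 247.8 and 236.4 CPM to 899.7, 847.6 and 959.1 CPM (1.91, SE 0.08), with no overlap. Ifi27l2a (76933) rose from 34.2, 26.1 and 28.6 CPM to 164.1, 273.3 and 166.6 CPM, with KO replicate 2 far above the others (2.76, SE 0.21, adjusted p = 2.97e-06, or 2.48 without that library). The nuclear body gene Sp100 (20684) was at 151.1, 154.9 and 155.7 CPM in Con and at 442.7, 445.6 and 429.7 CPM in KO (1.51, SE 0.07). Its relative Sp110 (109032) rose from 101.9, 88.0 and 89.0 CPM to 172.8, 187.2 and 189.2 CPM (0.98, SE 0.09). Isg20 (57444), an exonuclease that degrades RNA, rose from 47.9, 37.9 and 36.5 CPM to 62.4, 61.9 and 66.9 CPM (0.64, SE 0.11), but not past the threshold with library size only (0.28, adjusted p = 0.0561). Isg20l2 (229504), an exonuclease of ribosome maturation named for its likeness to ISG20, overlapped between the groups at 74.1, 62.6 and 63.3 against 58.8, 68.2 and 66.3 CPM. Its interval was -0.28 to 0.17, and with library size only it was lower (-0.41, adjusted p = 0.00597).

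Of the 3 genes for OAS proteins, which are known for making the oligoadenylate that activates RNase L, 1 rose and 2 did not pass. The share called was 33.3%, against 82% of all genes. Oas2 (246728) rose from 74.6, 94.98 and 95.3 CPM to 139.2, 131.7 and 119.3 CPM (0.56, SE 0.11, adjusted p = 0.00115), or by 0.21 (adjusted p = 0.0879) with library size only. Oas3 (246727) stood at 197.5, 216.6 and 226.6 CPM against 197.9, 188.4 and 215.9 CPM, with an interval of -0.29 to 0.11. Oasl2 (23962), an OAS-like protein, stood at 139.1, 170.6 and 165.5 CPM against 196.8, 165.7 and 144.2 CPM, with an interval of -0.19 to 0.38. Both overlapped between the groups after TMM scaling. With library size only Oas3 was lower (-0.44, adjusted p = 0.000528) and Oasl2 was at -0.26 (adjusted p = 0.0606).

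The IFIT genes, which bind viral RNA and lie in 1 cluster, split between rises and no call. Of 5, 3 rose, by 1.07 to 4.67 on the log2 scale, and 2 did not pass (60% called, against 82% of all genes). Ifit1bl2 (112419) went from 1.36, 1.81 and 1.36 CPM to 45.4, 38.0 and 32.3 CPM, a 25.4-fold higher level (log2 4.67, SE 0.20, adjusted p = 4.44e-08). Ifit1bl1 (667373) went from 0.682, 1.10 and 1.119 CPM to 5.14, 4.56 and 3.34 CPM (2.16, SE 0.30), from 9 to 14 counts per Con library. Both are IFIT1-like genes, the counts of Ifit1bl2 are not whole, and their sum rose by 4.11 (adjusted p = 6.67e-08). Ifit2 (15958), with 31.1, 38.3 and 40.5 CPM in Con, overlapped in KO at 35.2, 38.4 and 24.8 CPM, with an interval of -0.53 to 0.21. It was lower with library size only (-0.51, adjusted p = 0.0127). Ifit3 (15959), which stabilises IFIT1 complexes, was at 21.5, 29.1 and 31.8 CPM in Con and 28.5, 26.5 and 33.2 CPM in KO, an interval of -0.26 to 0.45.

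Ifit3b (667370), the copy whose upstream sequence is shown beside that of Ifit3, rose from 5.07, 6.44 and 6.32 CPM to 14.1, 11.6 and 11.6 CPM (1.07, SE 0.17, adjusted p = 0.000271). Both copies carry counts that are not whole. Summed as 1 feature, they stood at 33.4 ± 6.06 CPM in Con and 41.9 ± 3.40 CPM in KO, and the log2 fold change of 0.33 did not pass (adjusted p = 0.0532).

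Of the IFITM genes, small membrane proteins that block virus entry, 4 of 5 rose (80% called, against 82% of all genes). Ifitm6 (213002) had the highest fold of all members. It went from 4.24, 5.74 and 4.00 CPM to 1154, 1001 and 785.3 CPM, 210-fold higher (log2 7.71, SE 0.21, adjusted p = 5.61e-09), in libraries where late neutrophil markers were higher as well. Ifitm2 (80876) rose from 324.2, 280.9 and 287.7 CPM to 663.2, 606.9 and 638.9 CPM (1.10, SE 0.09), and Ifitm3 (66141) from 549.7, 583.9 and 596.8 CPM to 710.4, 822.6 and 771.2 CPM (0.41, SE 0.09). Ifitm3 was at 0.06 (adjusted p = 0.560) with library size only. Ifitm5 (73835), known from bone-forming cells, rose from 0.530, 0.314 and 1.119 CPM to 3.39, 8.02 and 7.59 CPM (3.25, SE 0.47), and rests on 4 to 14 counts per Con library. Without Con replicate 3 its value was 3.88. Ifitm10 (320802) lay at 3.33, 2.75 and 2.88 CPM against 3.50, 4.69 and 3.47 CPM. Its groups did not overlap, but its interval of -0.14 to 0.90 spans 0 (adjusted p = 0.153).

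Interferon-inducible GTPases, which attack the vacuoles of intracellular pathogens, divided evenly, with 3 of 6 higher and 3 lower. The share called was 100%, against 82% of all genes. Irgm1 (15944), a regulator of the immunity-related GTPases and of autophagy, fell from 124.4, 120.8 and 114.9 CPM to 54.6, 57.6 and 49.1 CPM (-1.16, SE 0.09, adjusted p = 1.5e-06). Gbp2 (14469) fell from 89.2, 65.5 and 66.6 CPM to 37.8, 28.1 and 35.0 CPM (-1.13, SE 0.15), and Gbp3 (55932) from 48.3, 44.3 and 46.4 CPM to 24.6, 29.1 and 29.6 CPM (-0.74, SE 0.10). The guanylate-binding genes of the other cluster, Gbp8, Gbp9 and Gbp4, which are consecutive genes, went the other way. Gbp8 (76074) rose from 4.70, 4.56 and 3.44 CPM to 18.0, 28.5 and 25.6 CPM (2.50, SE 0.21). Gbp9 (236573) rose from 21.7, 19.1 and 19.99 CPM to 37.7, 39.0 and 41.2 CPM (0.95, SE 0.10). Gbp4 (17472) rose from 11.4, 7.70 and 8.79 CPM to 13.3, 15.7 and 16.7 CPM (0.71, SE 0.18), or 0.35 (adjusted p = 0.108) with library size only. These 3 carry counts that are not whole, and their sum rose from 33.8 ± 3.49 to 78.6 ± 8.24 CPM (1.22, adjusted p = 5.33e-06), while Gbp2 and Gbp3 carry whole counts.

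The PYHIN genes are an expanded mouse cluster of DNA-binding proteins to which the sensor AIM2 also belongs. Of the 7 that are members, 4 rose and 3 did not pass (57.1% called, against 82% of all genes). Ifi208 (100033459) went from 2.27, 1.57 and 2.40 CPM to 17.2, 24.7 and 19.4 CPM (3.29, SE 0.22, adjusted p = 6.83e-07). Ifi213 (623121) went from 2.95, 2.44 and 3.12 CPM to 18.3, 30.6 and 25.2 CPM (3.12, SE 0.22). Ifi209 (236312) rose from 28.9, 40.2 and 37.2 CPM to 114.7, 163.8 and 125.9 CPM (1.93, SE 0.16), and Ifi206 (102639543) from 6.74, 7.70 and 7.92 CPM to 11.4, 15.05 and 12.6 CPM (0.81, SE 0.16). By RefSeq gene order, Ifi206, Ifi213, Ifi209 and Ifi208 lie on one side of Ifi207 in the cluster, and Ifi204, Ifi211 and Ifi203, which did not pass, lie on its other side.

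The 3 PYHIN genes without a call overlapped between the groups. Ifi203 (15950) was at 99.3, 134.1 and 142.1 CPM in Con and 102.3, 148.1 and 129.5 CPM in KO, an interval of -0.35 to 0.39. Ifi204 (15951), the p204 protein of DNA sensing and myeloid differentiation, was at 98.0, 138.3 and 133.4 CPM and at 105.8, 133.4 and 125.8 CPM, an interval of -0.34 to 0.30. Ifi211 (381308) was at 55.7, 78.5 and 73.6 CPM and at 38.6, 72.9 and 53.3 CPM, with a log2 fold change of -0.34. Without KO replicate 2 it was lower, at -0.60 (adjusted p = 0.0211). All 7 carry counts that are not whole. Their sum was 365.2 ± 62.0 CPM in Con and 496.5 ± 90.2 CPM in KO (log2 0.44, adjusted p = 0.0275). Mndal, which lies between Ifi204 and Ifi211 in the cluster, is not a member and is outside this sum. It did not pass (log2 0.04, adjusted p = 0.828), carries counts that are not whole, and was named after its values were seen.

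Some families had 1 library at their top or bottom within a group, and others did not. All 7 PYHIN genes were highest in KO replicate 2, at 1.15 to 1.59 times the mean of the other KO libraries, and all 7 were lowest in KO replicate 1. Among the Con libraries, replicate 1 was the highest in all 5 STAT genes and all 6 GTPase genes, and the lowest in all 3 OAS genes and 4 of 5 IFIT genes. Con replicates 2 and 3 lay close to each other, and over all 50 members replicate 1 was the highest Con library in 20 and the lowest in 22. Among the KO libraries, replicate 1 was the highest in 4 of 5 STAT genes and replicate 3 the lowest in 4 of 5 IFIT genes. No library was at the top of all IFITM genes. Con replicates 1, 2 and 3 were highest in 2, 1 and 2 of them, and KO replicates 1, 2 and 3 in 2, 3 and 0. For the IRF factors, KO replicates 1, 2 and 3 were highest in 1, 2 and 2 genes and lowest in 3, 0 and 2. Joint variation was not tested. The coefficient of variation had a median of 9.97% over the members in Con, against 7.03% over all genes tested, and of 11.8% in KO, against 11.97%.

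**Figure D4:**
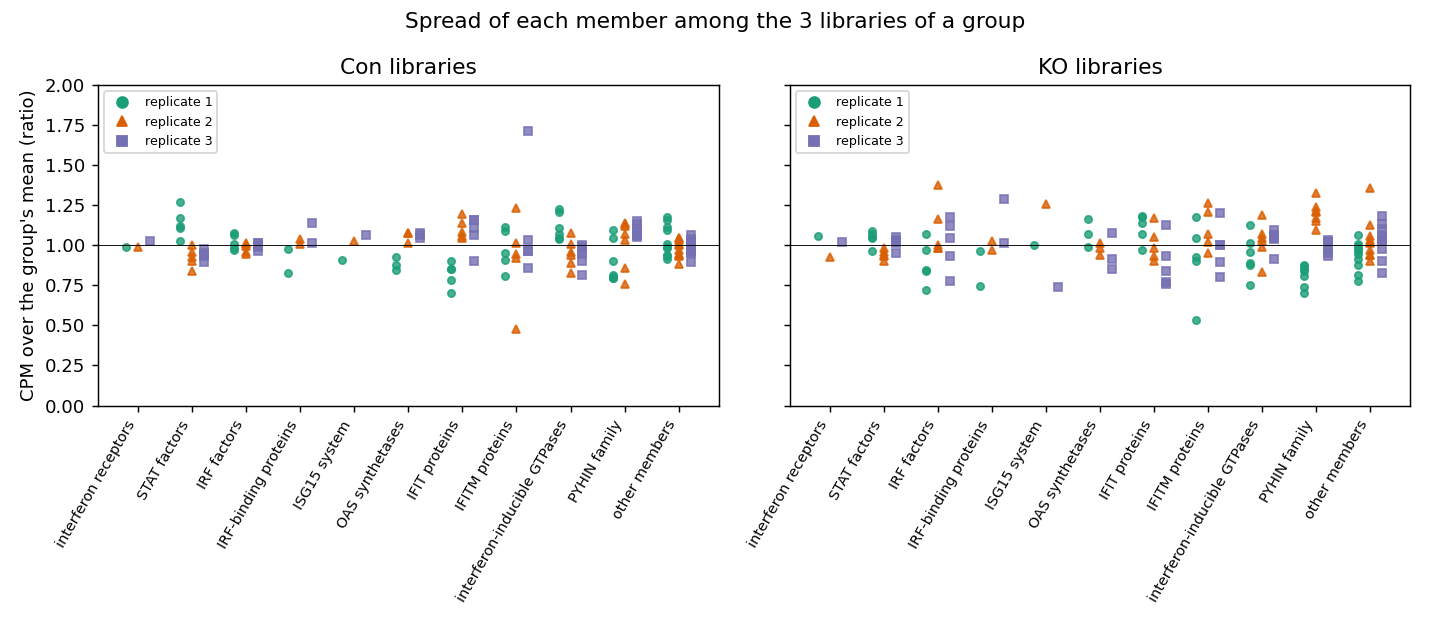
Level of each member in a library over the mean of its group (ratio, y axis), by role (x axis), for Con (left) and KO (right), with shape and colour for the replicate. In KO the PYHIN points of replicate 2 lie above those of the other libraries, and in Con the STAT and GTPase points of replicate 1 lie highest.

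Other genes of the interferon pathway had no common direction. Of 140 listed genes outside the members, 65 were in the table and tested. Of these 25 rose and 26 fell (78.5% called), and their median was 0.04 on the log2 scale. Ifng, interferon gamma, was the single ligand gene in the table and rose from 0.233 ± 0.0716 to 2.76 ± 0.622 CPM (3.49, SE 0.38), a level of few reads. Of the JAK kinases, Jak2 fell from 346.0 ± 5.90 to 147.7 ± 10.3 CPM (-1.23, SE 0.08), and Jak3 did not pass (0.07, SE 0.19).

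Of 9 negative regulators of JAK-STAT signalling 5 fell and 2 rose, or 77.8% called, against 82% of all genes. Cish, a feedback inhibitor that STAT5 is known to induce, fell from 216.4 ± 33.2 to 18.5 ± 3.13 CPM (-3.55, SE 0.16, adjusted p = 5.31e-08). The suppressor of cytokine signalling genes Socs2 (-2.42, SE 0.15), Socs1 (-2.38, SE 0.23) and Socs6 (-0.73, SE 0.09) fell too. Pias3, an inhibitor of STAT3, rose from 16.9 ± 0.947 to 60.1 ± 9.02 CPM (1.83, SE 0.12), and Pias1 rose by 0.52, or by 0.16 (adjusted p = 0.0957) with library size only.

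Of 10 genes for adaptors and kinases of nucleic acid sensing, 4 fell and 2 rose (60% called, against 82% of all genes). Ticam1, the adaptor TRIF of TLR3 and TLR4, fell from 62.5 ± 1.05 to 22.2 ± 1.32 CPM (-1.49, SE 0.09). The IRF3 kinases Ikbke (-1.21, SE 0.11) and Tbk1 (-0.91, SE 0.09) and the DNA receptor Tlr9 (-1.53, SE 0.21) fell as well. Myd88, the adaptor of most Toll-like receptors, rose from 79.9 ± 3.82 to 205.9 ± 1.10 CPM (1.37, SE 0.08), and the RNA receptor Tlr8 rose by 0.76 (SE 0.16).

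Antigen presentation genes, many of them known interferon gamma targets, held 6 of 9 that fell and 3 that rose. All were thus called, against 82% of all genes. Cd274, which encodes PD-L1, fell from 567.9 ± 8.69 to 17.8 ± 7.72 CPM (-5.00, SE 0.25, adjusted p = 1.99e-07). Nlrc5, the transactivator of class I genes, fell from 101.1 ± 6.11 to 35.1 ± 2.50 CPM (-1.53, SE 0.09), and Erap1 (-0.86) and Tapbp (-0.82) fell less. The class I gene H2-D1 (0.61), the immunoproteasome subunit gene Psmb9 (0.79) and the proteasome activator gene Psme1 (0.69) rose. H2-D1 did not pass with library size only (0.25, adjusted p = 0.0510).

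Among 34 other interferon-stimulated genes 17 rose and 10 fell (79.4% called, against 82% of all genes). The Schlafen gene Slfn4, known from myeloid cells, rose from 157.0 ± 6.99 to 1843 ± 278 CPM (3.55, SE 0.13), and Slfn1 by 3.18 (SE 0.17). The TRIM genes of the list did not move together. Trim30b and Trim12a, with counts that are not whole, rose by 4.10 (SE 0.18) and 1.43 (SE 0.10). Trim30c (-2.71, SE 0.23), Trim30a (-0.35) and Trim34a (-0.30) fell, and Trim30d (-0.06) did not pass. The chemokine gene Cxcl10 fell from 66.7 ± 6.55 to 7.43 ± 0.741 CPM (-3.17, SE 0.13), Rnf213, a large ubiquitin ligase, by 2.32, Lgals3bp by 2.48 and Tor3a by 1.41. Cmpk2, the gene next to Rsad2, rose from 55.7 ± 7.30 to 107.8 ± 13.3 CPM (0.95, SE 0.12), while Rsad2 fell by 1.38. Cxcl9, a chemokine gene of interferon gamma, rose from 0.784 ± 0.246 to 22.2 ± 7.59 CPM (4.81, SE 0.33). Cmpk2, Cxcl9, Trim30a, Trim30c, Trim30d and Trim34a were named after their values were seen.

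**Figure D5:**
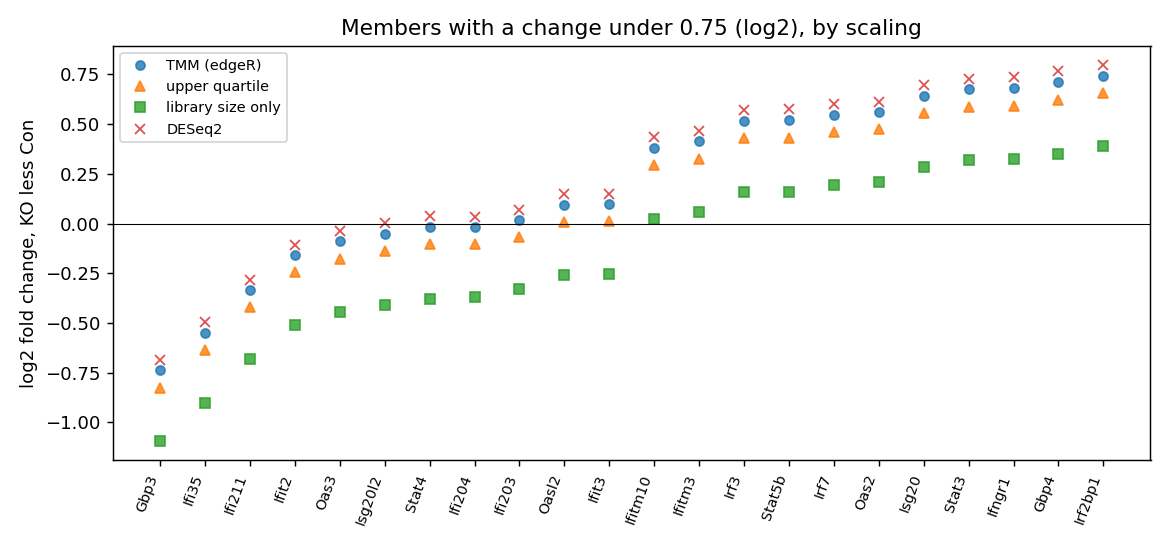
Log2 fold change (KO less Con, y axis) of 22 members with a change under 0.75 (x axis) under TMM scaling in edgeR, upper-quartile scaling, library size only and DESeq2. Library size only lies below TMM throughout, which puts Ifi203, Oasl2 and Ifit3 below 0, and Ifi203 is below 0 with upper-quartile scaling too.

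Scaling changed the call of members with small changes. With library size only, 7 members that rose after TMM scaling did not pass (Gbp4, Ifitm3, Irf3, Irf7, Isg20, Oas2 and Stat5b), and 7 without a call were lower, among them Ifi204, Ifi211, Ifit2, Isg20l2, Oas3 and Stat4. In 42 of 50 members the direction was the same in all 14 alternatives in which the gene could be fitted, and in 33 of 50 the call was too.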

How the data were processed

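The authors deposited 1 table of expected counts per gene, not scaled, with 1 column for each of the 6 libraries, per the file headers. Libraries came from TRIzol RNA and the BGI Optimal Dual-mode kit, per the labels' protocols. No source used here names how reads were counted. GRCh38, the build in the submitters' processing notes, is human, whereas the deposited IDs match mouse genes. In 1449 of 9295 genes (15.6%), and in 19 of the 50 members, a count is not whole, as where reads are split between genes, and all values were rounded before testing. All columns matched a library by name (0 unused).

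KO and Con were compared with edgeR 4.0.16 in R 4.3.3 (TMM, filterByExpr, robust quasi-likelihood test, two-sided, no covariate), with Benjamini-Hochberg adjustment over all 8358 genes tested and a threshold of 0.05. SEs are the fold change over the root of the F statistic. The script was tested on simulated data. Column totals of 8875022 to 11436216 counts limit the precision of genes at a few CPM. Alternatives were DESeq2 1.42.0, limma-voom 3.58.1, other scalings and filters, a replicate block, each library left out, and, chosen after seeing the data, Con replicates 2 and 3 summed and family copies summed.

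The members and lists were chosen with earlier results of these data known. Values per library are given for receptor, IRF and STAT members, except 1 member that is counted but not reported by itself here, and, in other roles, for up to 5 members of highest and 5 of lowest fold past the threshold. Beyond that rule, values per library were added for the 9 members of other roles that did not pass. Of each other pathway list, up to 4 genes per direction with the smallest p are named. Members may all be named, and the text marks any further gene as chosen with its values in view. The 9 marker lists cover neutrophils, red cells, macrophages, monocytes, dendritic cells, lymphoid cells and stroma. Promoter letters were searched in the RefSeq table of GRCm38.p6, which holds 32851 promoters of 27025 genes.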

Additional observations from a re-analysis of the deposited data

How the results depend on the processing

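Library size as the only scaling changed most. The number of members lower in KO was 17 in place of 10. By role, 3 IRF factors were higher, 1 STAT factor was higher and 3 lower, 0 OAS genes were higher and 1 lower, 1 IFIT and 2 PYHIN genes were lower, and 1 negative regulator of JAK-STAT was higher. The direction turned for Ifi203 (-0.33), Ifit3 (-0.25), Oasl2 (-0.26) and Papola (-0.13). Upper-quartile scaling turned Ifi203 (-0.0688). DESeq2 turned Ifi204 (0.0345), Isg20l2 (0.00394) and Stat4 (0.0377), and the stricter filter Ifi204 (0.0183) and Stat4 (0.0182). That filter left no interferon ligand (0 higher) and left out Ifit1bl1, Ifitm5, Ifitm10 and Ifng.

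Leaving out 1 library at a time gave 28 to 29 members higher and 10 to 11 lower, and 0 to 1 PYHIN genes lower (1 without KO replicate 2). It turned the sign of genes without a call, over ranges of -0.11 to 0.15 for Ifi203, -0.15 to 0.0905 for Ifi204, -0.29 to 0.00273 for Ifit2, -0.0409 to 0.23 for Ifit3, -0.0972 to 0.0438 for Isg20l2, -0.0337 to 0.19 for Oasl2 and -0.0880 to 0.12 for Stat4.

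Same-numbered libraries did not vary together (correlations of deviations -0.00166, 0.0277 and -0.00374). With so few libraries this cannot settle whether the numbers mark a pairing. With the replicate number as a block, 29 members were higher and 11 lower, and 1 PYHIN gene, Ifi211, was lower (-0.36, adjusted p = 0.012). Summing Con replicates 2 and 3 gave 28 members higher and 10 lower and turned Ifi204 (0.0575). Family sums are values of the sum, not of a single gene. The sum of Stat5a and Stat5b was at -0.14, where Stat5b alone was above 0. The PYHIN sum was at 0.44, where Ifi204 and Ifi211 alone were below 0. The cause of these changes was not tested. Ranges over the alternatives were -3.33 to -2.81 for Usp18 and -1.91 to -1.33 for Stat5a.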
